A study of Mus musculus with 12 samples.

Results

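The insulin-like growth factor (IGF) pathway was followed in 9 genes of the 46477 in the count table, namely Igf1, Igf1r, Igfbp2, Igfbp3, Igfbp4, Igfbp5, Insr, Irs1 and Irs2. They were taken by symbol, as a group chosen by the counts of Igfbp5, which stood far lower in EpiLCs without MTCH2 than in those with it. For these 9 genes, differences between the genotypes in EpiLCs, and everything derived from them, are therefore described without a test. Genes outside the group are tested there. Of the 9 genes, 8 passed the filter on low counts, as did 17369 genes in all, and Igf1 did not. RNA was sequenced from 4 groups of mouse embryonic stem cells with 3 libraries each. The EpiLCs, MTCH2-/- or MTCH2 F/F, came from 2 days in FGF2 and Activin A, and the ESCs, again MTCH2-/- or MTCH2 F/F, were kept in LIF with inhibitors of MEK and GSK3 (2i/L). All cells descended from C57BL/6 embryos (C57BL/6J in the study's methods) of E3.5 that carried floxed Mtch2 alleles, so the F/F cells, which the labels call wild type, are floxed as well. MTCH2-/- cells were made by exposing F/F cells to a cell-permeable Cre protein, and the sources used here name no mock treatment of the F/F cells. Loss of the gene and exposure to Cre cannot be told apart. The study's methods give 3 biological samples per condition, and its supplement has blots of 3 F/F ESC clones with and without Cre. Neither the methods nor the labels say whether the 3 libraries of a group come from these or other separate lines. The tests therefore measure the spread between these libraries.

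IGF1 and IGF2 act through the IGF1 receptor (Igf1r) and, with insulin, through the insulin receptor (Insr). Both receptors are tyrosine kinases that phosphorylate the docking proteins IRS1 and IRS2, and these recruit PI3K, which activates AKT. The IGF binding proteins (IGFBPs) are secreted proteins that hold IGFs in the extracellular space, and depending on the site and on their cleavage by proteases they limit or prolong access to the receptor. IGFBPs do not bind insulin with high affinity. The N2 and B27 supplements used in both media contain insulin, so the cells were cultured with a ligand of this pathway whatever they made themselves.

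Library totals were 17453328 to 24068523 counts. Levels are given as CPM, that is counts relative to the library total, scaled by the trimmed mean of M values (TMM) as a correction for library composition. Mtch2 had 1.52 to 2.18 CPM in MTCH2-/- EpiLCs, against 121.9 to 123.0 in the F/F EpiLCs, and 1.58 to 2.19 CPM in MTCH2-/- ESCs, against 172 to 183 in the F/F ESCs, which fits the labels. Summed over 10 naive genes, expression was 2377 to 2465 CPM in MTCH2-/- EpiLCs, against 359 to 664 in F/F EpiLCs, with 9 of 10 genes higher and 1 lower in MTCH2-/- cells. In ESCs it was 4470 to 5032 CPM in MTCH2-/- cells, against 5327 to 5825 in F/F cells. Summed over 8 genes of the primed or formative epiblast, it was 729 to 948 CPM in MTCH2-/- EpiLCs, against 3046 to 3688 in F/F EpiLCs, with 8 of 8 lower. In ESCs it was 166 to 177 CPM in MTCH2-/- cells, against 154 to 158 in F/F cells. All IGF comparisons between the EpiLCs run alongside this difference in primed and naive markers, and its part in them was not tested. In bulk RNA, fewer cells that express a gene and less RNA per cell cannot be told apart. The summed level of 12 fibroblast markers overlapped between the EpiLC groups, at 40.1 to 58.9 CPM in MTCH2-/- and 43.5 to 48.6 CPM in F/F cells, with 4 of the 9 tested markers higher and 2 lower in MTCH2-/- cells. It overlapped in ESCs as well, at 49.8 to 75.4 CPM in MTCH2-/- and 58.1 to 69.1 CPM in F/F cells, with 6 higher and 1 lower. Col1a1, Col1a2 and Col3a1 were higher in MTCH2-/- cells in both media. Their log2 fold changes were 1.17, 0.73 and 1.66 in EpiLCs and 0.77, 0.85 and 1.43 in ESCs. The lower markers were Thy1 and Dcn in EpiLCs and Fbln2 in ESCs. In F/F ESCs the largest parts of the sum were Fbln2 (mean 32.0 CPM) and Pdgfrb (17.8 CPM). The list bears on the feeder fibroblasts on which the lines were maintained, since fibroblasts make several IGFBPs. Of the other lists, primitive endoderm markers summed to 155 to 200 CPM in MTCH2-/- EpiLCs, against 97.3 to 106 in F/F EpiLCs (7 of 8 tested higher, 1 lower), and early neural markers to 52.6 to 61.4 CPM in MTCH2-/- EpiLCs, against 89.0 to 123.4 in F/F EpiLCs (2 of 3 tested lower). In the ESCs, primitive endoderm markers summed to 214 to 236 CPM in MTCH2-/- cells, against 182 to 205 in F/F cells (4 of 8 tested higher, 1 lower), and early neural markers, unlike in EpiLCs, to 47.6 to 50.5 CPM in MTCH2-/- cells, against 21.6 to 27.7 in F/F cells (1 of 3 tested higher). The early neural gene that was higher in ESCs was Nes, at a mean of 43.2 CPM in MTCH2-/- cells, against 20.3 in F/F cells. Also in ESCs, trophoblast markers summed to 92.0 to 108 CPM in MTCH2-/- cells, against 34.5 to 39.9 in F/F cells (3 of 5 tested higher, 1 lower). The keratin genes Krt8 (mean 47.6 against 9.76 CPM) and Krt18 (31.2 against 7.49 CPM) made up most of the rise. Eomes was higher by 0.38 on the log2 scale, Cdx2 was lower, at −1.37, and Gata3 did not pass. The part of these lists in the IGF results was not tested either.

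The 4 IGFBP genes lie on 2 chromosomes. On GRCm38, Igfbp2 (ENSMUSG00000039323) runs on the plus strand of chromosome 1 from 72824503 to 72852474 and Igfbp5 (ENSMUSG00000026185) on the minus strand from 72857932 to 72874884, so that their 3′ ends face each other across 5457 bases. Igfbp3 (ENSMUSG00000020427) lies on the minus strand of chromosome 11 from 7206086 to 7213923, tail to tail with Igfbp1 at a gap of 3539 bases, and Igfbp4 (ENSMUSG00000017493) on the plus strand of chromosome 11 from 99041244 to 99054392. As Igfbp5 chose the group and the other IGFBPs are its closest relatives in it, the genomic bases just before their transcription starts are shown from RefSeq (GRCm38.p6), from 250 to 21 bases before the start, 5′ to 3′ on the strand of the gene. Capitals mark matches, on either strand, to 5 motifs. These are TATNNA (a TATA-like element), GGGCGG (a GC box), CACGTG (an E-box), GTAAACA (a FOXO site) and GCCNNNGGC (an AP-2 site). A match is a description of the letters, not a functional site.
Igfbp5 (chr1:72874886-72875115, minus strand): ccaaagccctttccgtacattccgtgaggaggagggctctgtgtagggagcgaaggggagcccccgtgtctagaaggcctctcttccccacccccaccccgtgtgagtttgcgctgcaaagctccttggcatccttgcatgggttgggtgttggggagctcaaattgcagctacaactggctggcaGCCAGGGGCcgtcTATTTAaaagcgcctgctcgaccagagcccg
Igfbp4 (chr11:99040994-99041223, plus strand): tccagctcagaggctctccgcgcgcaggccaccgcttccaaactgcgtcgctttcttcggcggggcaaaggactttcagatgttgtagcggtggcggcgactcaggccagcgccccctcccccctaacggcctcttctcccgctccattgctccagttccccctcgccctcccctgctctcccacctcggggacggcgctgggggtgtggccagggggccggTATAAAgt
Igfbp3 (chr11:7213944-7214173, minus strand): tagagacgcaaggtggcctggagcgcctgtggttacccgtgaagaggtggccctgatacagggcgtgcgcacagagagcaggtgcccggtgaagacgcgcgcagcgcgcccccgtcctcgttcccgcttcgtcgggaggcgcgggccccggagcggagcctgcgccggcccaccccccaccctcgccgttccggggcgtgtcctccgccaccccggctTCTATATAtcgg
Igfbp2 (chr1:72824230-72824459, plus strand): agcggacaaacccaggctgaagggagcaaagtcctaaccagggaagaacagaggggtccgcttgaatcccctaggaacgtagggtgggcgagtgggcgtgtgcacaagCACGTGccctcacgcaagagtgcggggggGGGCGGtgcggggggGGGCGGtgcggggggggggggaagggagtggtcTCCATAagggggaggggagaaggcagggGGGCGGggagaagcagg

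A TATNNA match on the strand of the gene, between 65 and 21 bases before the start, was found in Igfbp5 (51 to 46 bases before the start), in Igfbp4 (28 to 23) and in Igfbp3 (30 to 25). In Igfbp3 it overlaps a match on the opposite strand (32 to 27). Of all 32851 RefSeq promoters of this length, 10.1% hold such a match, and Igfbp2 does not. The TATNNA match marked in Igfbp2, 65 to 60 bases before the start, lies on the opposite strand. Over the whole window and both strands TATNNA is in 54.7% of promoters. Igfbp2 also holds 3 GC boxes and 1 E-box, motifs found in 29.8% and 5.35% of promoters. The Igfbp5 window holds 1 GCCNNNGGC match (12.4% of promoters), 64 to 56 bases before the start and apart from its TATNNA match. GTAAACA (2.91% of promoters) was in none of the 4 windows. The windows of all 4 were rich in G and C, at 60.4% in Igfbp5, 67.4% in Igfbp4, 71.7% in Igfbp3 and 68.3% in Igfbp2, against a median of 51.7% over all promoters. The CpG number was lowest in Igfbp5 at 10 and highest in Igfbp3 at 29, with 19 in Igfbp4 and 13 in Igfbp2, against a median of 5. Igfbp2 has a further RefSeq start downstream, whose window (chr1:72825137-72825366) held no match to any of the 5 motifs.

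Igfbp5, which encodes a secreted binding protein that also attaches to the extracellular matrix, was present at a substantial level in MTCH2 F/F EpiLCs alone. It had 2.80, 2.36 and 3.47 CPM in the 3 MTCH2-/- EpiLC libraries, against 62.7, 74.8 and 58.1 CPM in MTCH2 F/F EpiLCs, which comes from 45 to 72 counts a library in MTCH2-/- and 992 to 1544 counts in MTCH2 F/F EpiLCs. In ESCs it had 1.66, 1.67 and 1.77 CPM in MTCH2-/- cells, against 1.93, 2.05 and 1.48 CPM in MTCH2 F/F cells. MTCH2-/- EpiLCs thus stood far below MTCH2 F/F EpiLCs and above both ESC groups, while the 2 ESC groups overlapped. Group means were 2.88 ± 0.560 CPM (mean ± SD, n = 3) in MTCH2-/- EpiLCs and 65.2 ± 8.62 CPM (n = 3) in MTCH2 F/F EpiLCs, a 22.7-fold lower mean in MTCH2-/- cells. The log2 fold change was −4.50 (SE 0.142), and this is the value that chose the group. In ESCs the log2 fold change between the genotypes was −0.10 (SE 0.201, edgeR adjusted p = 0.707), so a difference was not detectable there at 30 to 42 counts a library. Between EpiLCs and ESCs, Igfbp5 was higher by 0.76 on the log2 scale (SE 0.186) in MTCH2-/- cells and by 5.16 (SE 0.152) in MTCH2 F/F cells, given without a test because both contain the EpiLC levels that chose it.

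Igfbp4, an IGFBP that is cleaved by the protease PAPP-A, had the same order of groups as Igfbp5 in EpiLCs at a lower level. Its CPM were 2.36, 1.73 and 2.22 in MTCH2-/- EpiLCs, against 8.73, 7.51 and 6.74 in MTCH2 F/F EpiLCs, and 1.82, 1.91 and 1.18 in MTCH2-/- ESCs, against 2.33, 2.34 and 1.98 in MTCH2 F/F ESCs. The F/F EpiLCs stood alone above the other 3 groups, and MTCH2-/- EpiLCs overlapped both ESC groups. Group means were 2.10 ± 0.331 CPM in MTCH2-/- EpiLCs and 7.66 ± 1.0 CPM in MTCH2 F/F EpiLCs (n = 3 each). The log2 fold change between the EpiLCs was −1.86 (SE 0.191, not tested). In ESCs all 3 MTCH2-/- libraries lay below all 3 MTCH2 F/F libraries, but the log2 fold change of −0.42 (SE 0.215) did not pass (edgeR adjusted p = 0.124), at 22 to 48 counts a library.

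Igfbp2, the most abundant of the 4 IGFBPs per kilobase, was lower in MTCH2-/- cells in both media. It had 290, 282 and 243 CPM in MTCH2-/- EpiLCs, against 566, 576 and 637 CPM in MTCH2 F/F EpiLCs, and 163, 149 and 116 CPM in MTCH2-/- ESCs, against 262, 271 and 231 CPM in MTCH2 F/F ESCs. The genotypes did not overlap in either medium, whereas MTCH2-/- EpiLCs overlapped MTCH2 F/F ESCs. In ESCs, a comparison that the rule for choosing the genes did not name, Igfbp2 fell by 0.83 on the log2 scale (SE 0.108, edgeR adjusted p = 2.92e-05), to a mean of 143 ± 24 CPM in MTCH2-/- ESCs, against 255 ± 21.1 CPM in MTCH2 F/F ESCs (n = 3 each). This call held under all 19 alternatives tried, with log2 fold changes of −0.94 to −0.71. In EpiLCs the log2 fold change was −1.13 (SE 0.108, not tested), with means of 272 ± 24.9 CPM in MTCH2-/- and 593 ± 38.1 CPM in F/F EpiLCs (n = 3 each).

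Igfbp3, the main carrier of IGFs in serum, went the other way in ESCs. It had 15.8, 15.1 and 16.5 CPM in MTCH2-/- EpiLCs, against 21.7, 17.2 and 18.8 CPM in MTCH2 F/F EpiLCs, and 10.5, 8.69 and 11.4 CPM in MTCH2-/- ESCs, against 7.49, 6.92 and 8.36 CPM in MTCH2 F/F ESCs. Each group lay apart from the others, F/F EpiLCs being highest, then MTCH2-/- EpiLCs, then MTCH2-/- ESCs, with F/F ESCs lowest. In ESCs Igfbp3 was higher in MTCH2-/- cells by 0.42 on the log2 scale (SE 0.128, edgeR adjusted p = 0.0141). That call was lost when MTCH2-/- ESC replicate 3 was left out (adjusted p = 0.0665), or F/F ESC replicate 1 (0.0531) or 2 (0.0834), and held when any other library was left out. In EpiLCs the log2 fold change was −0.28 (SE 0.118, not tested).

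**Figure D1:**
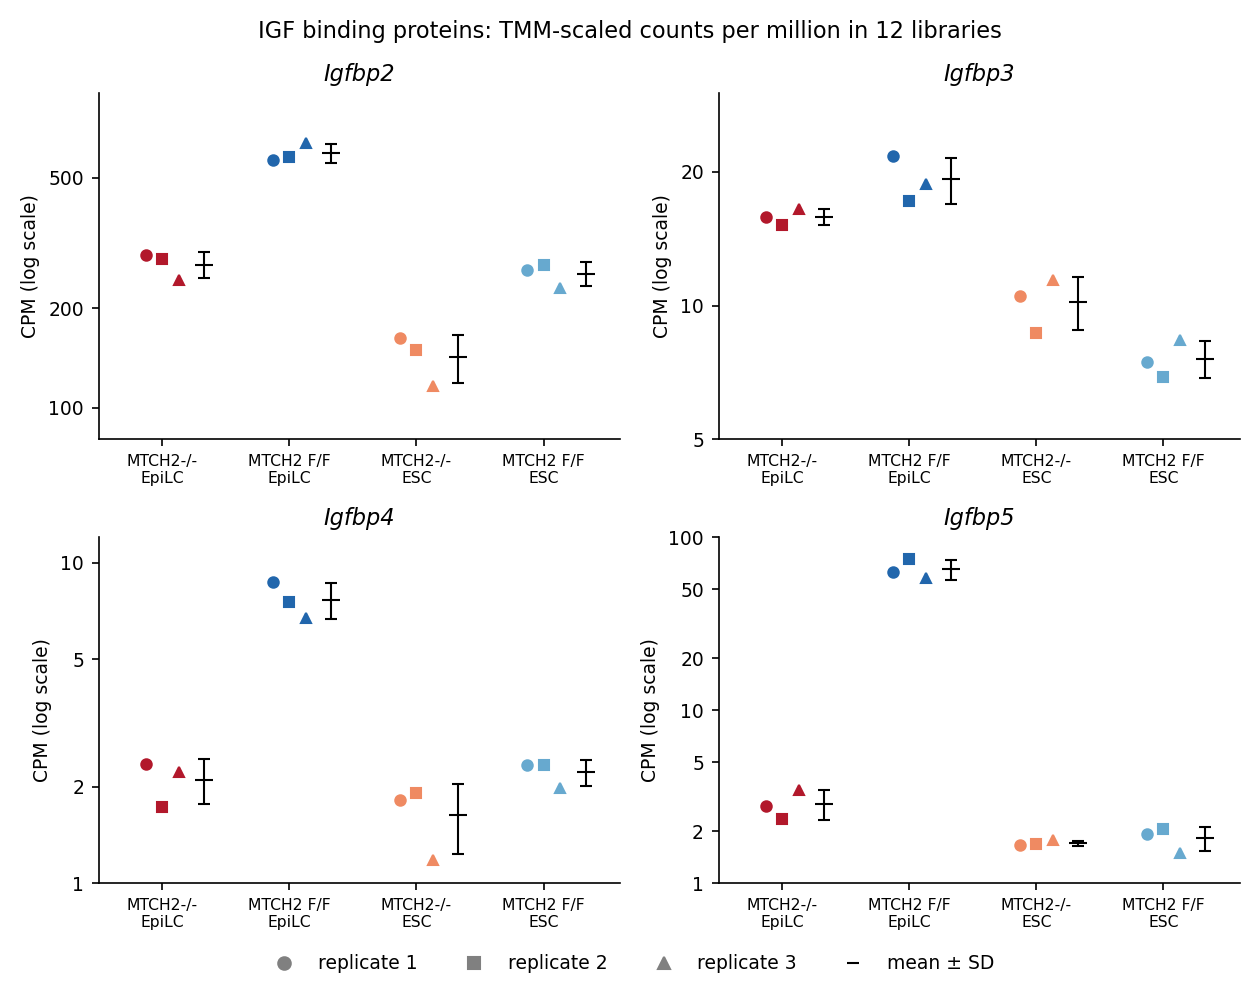
TMM-scaled CPM of Igfbp2, Igfbp3, Igfbp4 and Igfbp5 on log axes of differing range, with EpiLCs (MTCH2-/-, then F/F) left of ESCs (MTCH2-/-, then F/F). Points are libraries, shaped by replicate number, and bars are the mean ± SD (n = 3); Igfbp5 sits at 2.36 to 3.47 CPM in MTCH2-/- EpiLCs, against 58.1 to 74.8 CPM in F/F EpiLCs, and at 1.48 to 2.05 CPM in the 6 ESC libraries.

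Per kilobase of exon, which allows levels to be compared between genes, Igfbp2 made up 93.7% to 97.9% of the summed level of these 4 binding proteins in every library. The sum per kilobase was 163, 158 and 138 CPM in MTCH2-/- EpiLCs, against 326, 331 and 362 CPM in MTCH2 F/F EpiLCs, and 92.1, 84.4 and 67.1 CPM in MTCH2-/- ESCs, against 145, 150 and 129 CPM in MTCH2 F/F ESCs. The sum therefore followed Igfbp2 and was lower in MTCH2-/- cells in both media without overlap. Igfbp5 contributed 0.286%, 0.248% and 0.419% of it in MTCH2-/- EpiLCs, against 3.20%, 3.76% and 2.67% in MTCH2 F/F EpiLCs, where it exceeded Igfbp3 in each library (2.13%, 1.66% and 1.66%). In the other 3 groups Igfbp3 exceeded Igfbp5 in each library.

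The receptors differed less between the groups. Igf1r (ENSMUSG00000005533, chromosome 7 from 67952827 to 68233668) had 30.9, 27.1 and 24.4 CPM in MTCH2-/- EpiLCs, against 31.8, 34.8 and 39.5 CPM in MTCH2 F/F EpiLCs, and 28.9, 23.9 and 23.4 CPM in MTCH2-/- ESCs, against 23.4, 22.3 and 23.2 CPM in MTCH2 F/F ESCs. The EpiLC groups lay next to each other without overlap, with a log2 fold change of −0.36 (SE 0.107, not tested), and MTCH2-/- EpiLCs overlapped MTCH2-/- ESCs. In ESCs the groups overlapped, and the log2 fold change of 0.15 (SE 0.109) did not pass (edgeR adjusted p = 0.286). Insr (ENSMUSG00000005534, chromosome 8 from 3122061 to 3279617) had 63.7, 49.4 and 46.6 CPM in MTCH2-/- EpiLCs, against 49.3, 49.0 and 52.2 CPM in MTCH2 F/F EpiLCs, and 53.3, 49.6 and 45.9 CPM in MTCH2-/- ESCs, against 40.8, 42.1 and 40.3 CPM in MTCH2 F/F ESCs. Only MTCH2 F/F ESCs stood apart, below the other 3 groups, which overlapped among themselves. The log2 fold change of Insr was 0.09 (SE 0.098, not tested) in EpiLCs, and it changed sign when replicate 1 of the MTCH2-/- EpiLCs was left out (−0.06). In ESCs Insr was higher in MTCH2-/- cells by 0.27 (SE 0.098, edgeR adjusted p = 0.0337). That call was lost on leaving out MTCH2-/- ESC replicate 1 or 2 (adjusted p = 0.124 and 0.0604), F/F ESC replicate 1, 2 or 3 (0.102, 0.0754 and 0.107), or F/F EpiLC replicate 1, 2 or 3 (0.0562, 0.0557 and 0.0506), which enter through the shared spread.

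The docking proteins were both higher in MTCH2-/- ESCs and had lower means in MTCH2-/- EpiLCs. Irs1 (ENSMUSG00000055980, chromosome 1 from 82233101 to 82291416) had 4.50, 3.51 and 2.75 CPM in MTCH2-/- EpiLCs, against 5.29, 5.43 and 4.98 CPM in MTCH2 F/F EpiLCs, and 3.93, 2.37 and 2.62 CPM in MTCH2-/- ESCs, against 1.49, 1.36 and 1.78 CPM in MTCH2 F/F ESCs. The genotypes did not overlap in either medium, with MTCH2-/- cells lower in EpiLCs and higher in ESCs, and the 2 MTCH2-/- groups overlapped. In ESCs the log2 fold change was 0.95 (SE 0.238, edgeR adjusted p = 0.00429), and this call held under all 19 alternatives (0.69 to 1.10). In EpiLCs it was −0.54 (SE 0.209, not tested). Irs1 rests on 28 to 36 counts a library in MTCH2 F/F ESCs. An annotated gene on the opposite strand, Gm9747, covers 30.9% of its exon bases and had 0 counts in all 12 libraries. The library kit does not keep the strand, so reads of the pair cannot be told apart. Reads in the shared bases may have been left out of both counts, so the 0 counts set no limit on Gm9747. Irs2 (ENSMUSG00000038894, chromosome 8 from 10984681 to 11008458) had 27.1, 22.4 and 27.5 CPM in MTCH2-/- EpiLCs, against 28.7, 28.6 and 32.7 CPM in MTCH2 F/F EpiLCs, and 27.5, 24 and 25.9 CPM in MTCH2-/- ESCs, against 19.4, 21.1 and 23.5 CPM in MTCH2 F/F ESCs. As with Irs1, the genotypes stood apart in each medium in opposite directions, by −0.22 (SE 0.101, not tested) in EpiLCs and 0.27 (SE 0.102, edgeR adjusted p = 0.0393) in ESCs. The Irs2 call in ESCs was lost with RLE scaling (adjusted p = 0.0551) and DESeq2 (0.0572), and on leaving out MTCH2-/- ESC replicate 1 or 3 (0.136 and 0.0797), F/F ESC replicate 1 or 2 (0.212 and 0.127) or F/F EpiLC replicate 1, 2 or 3 (0.0675, 0.0671 and 0.0540).

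**Figure D2:**
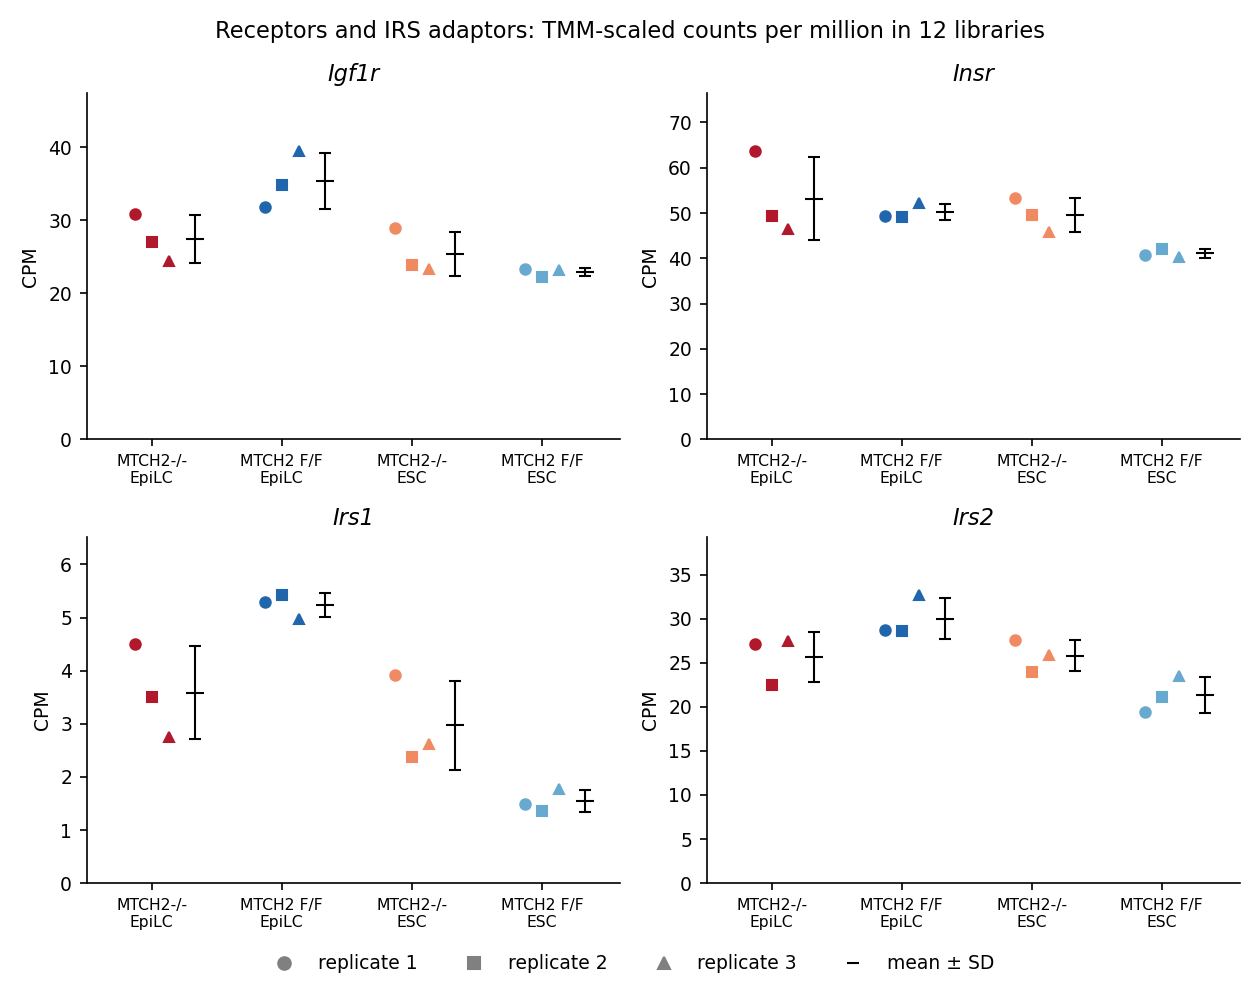
TMM-scaled CPM of Igf1r, Insr, Irs1 and Irs2 on linear axes from 0, with EpiLCs (MTCH2-/-, then F/F) left of ESCs (MTCH2-/-, then F/F). Points are libraries, shaped by replicate number, and bars are the mean ± SD (n = 3); Irs1 in MTCH2-/- cells lies below MTCH2 F/F cells in EpiLCs and above them in ESCs.

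The ligand gene Igf1 (ENSMUSG00000020053, chromosome 10 from 87858265 to 87937042) was close to undetected. It had 5, 4 and 5 counts in MTCH2-/- EpiLCs, against 1, 0 and 0 counts in MTCH2 F/F EpiLCs, and 1, 0 and 1 counts in MTCH2-/- ESCs, against 3, 3 and 2 counts in MTCH2 F/F ESCs. A count of 0 allows up to 3 counts in that library and no fold is given at these counts. Counting intervals and limits of this kind cover counting error only.

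Among the MTCH2-/- libraries, replicate 1 had the highest Igf1r, Insr, Irs1 and Igfbp2 in EpiLCs as well as in ESCs, and replicate 3 had the lowest Igfbp2, Insr and Igf1r in both. Libraries with the same replicate number deviated together across all genes, so the same-numbered libraries are taken as paired. The main fit leaves this pairing out, as does each SE and adjusted p printed without naming the replicate block. With the number as a block, the 5 members past the threshold in ESCs stayed at 5.

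Seen together in ESCs, 4 of the 8 tested members were higher in MTCH2-/- cells (Igfbp3, Insr, Irs1 and Irs2), 1 was lower (Igfbp2) and 3 did not pass (Igf1r, Igfbp4 and Igfbp5). Over all genes tested, 23.3% were higher and 20.4% lower in this comparison, so that 43.8% passed in either direction. The median log2 fold change of the 8 was 0.21, against 0.01 over all genes. The number of members past the threshold was 5, and 2 to 5 when libraries were left out in turn. It was 3 on leaving out MTCH2-/- ESC replicate 1 or 3 or any F/F EpiLC library, and 2 on leaving out F/F ESC replicate 1 or 2. Igfbp2 and Irs1 were past it in each case. In EpiLCs 7 of the 8 had all MTCH2-/- libraries below all F/F libraries, and Insr overlapped, with a median log2 fold change of −0.45. Of all genes tested there, 34.4% lay higher and 32.6% lower without overlap (67% in all), and 32.3% passed the test as higher and 30.2% as lower. Since this comparison chose the group, nothing is read from the difference.

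The response of these genes to priming is given for each genotype by itself. Here EpiLCs are set against ESCs of the same genotype, and for 7 members, all but Igfbp5, the change was tested. In MTCH2-/- cells 2 of the 7 rose (Igfbp2 and Igfbp3) and 5 did not pass, where 20% of all genes rose. In MTCH2 F/F cells 7 of 7 rose, where 31.9% of all genes rose. The 2 comparisons use the same EpiLC libraries as the difference between the genotypes described above, which chose the group. Nothing is therefore read from the 7 in MTCH2 F/F cells against the 2 in MTCH2-/- cells. The median log2 fold change of the 7 was 0.26 in MTCH2-/- and 1.22 in MTCH2 F/F cells, against −0.02 and −0.01 over all genes.

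By gene, the responses to priming were as follows. Igfbp2 rose by 0.93 on the log2 scale (SE 0.108, edgeR adjusted p = 7.91e-06) in MTCH2-/- and by 1.22 (SE 0.108, adjusted p = 1.22e-07) in MTCH2 F/F cells. Igfbp3 rose by 0.64 (SE 0.122, edgeR adjusted p = 5.57e-04) in MTCH2-/- and by 1.34 (SE 0.125, adjusted p = 1.13e-07) in MTCH2 F/F cells. These were the members that passed in both genotypes. Igfbp4 had a log2 fold change of 0.35 (SE 0.215, edgeR adjusted p = 0.205) in MTCH2-/- cells and rose by 1.79 (SE 0.191, adjusted p = 5.29e-07) in MTCH2 F/F cells. Irs1 was at 0.26 (edgeR adjusted p = 0.353) in MTCH2-/- cells and rose by 1.76 (SE 0.230, adjusted p = 5.38e-06) in MTCH2 F/F cells, the most after Igfbp5 and Igfbp4. The remaining receptors and docking protein moved by less than 1 on the log2 scale in either genotype. Igf1r was at 0.11 (edgeR adjusted p = 0.437) in MTCH2-/- and at 0.62 (adjusted p = 1.01e-04) in MTCH2 F/F cells, and Irs2 at −0.01 (adjusted p = 0.971) in MTCH2-/- and at 0.49 (adjusted p = 5.24e-04) in MTCH2 F/F cells. Insr was at 0.10 (edgeR adjusted p = 0.431) in MTCH2-/- and at 0.29 (SE 0.0986, adjusted p = 0.0178) in MTCH2 F/F cells. The Insr call in MTCH2 F/F cells was lost when F/F EpiLC replicate 3 was left out (adjusted p = 0.0508), and the other 6 calls in MTCH2 F/F cells and both in MTCH2-/- cells held under all 19 alternatives.

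A response that passes in 1 genotype alone is not shown to differ between them, and since the difference of the responses holds the EpiLC comparison, it is described and not tested. The response of MTCH2-/- minus that of MTCH2 F/F cells was below 0 for all 8 members, with a median of −0.61 on the log2 scale. It was −4.39 (SE 0.253) for Igfbp5, −1.50 (SE 0.317) for Irs1, −1.43 (SE 0.289) for Igfbp4 and −0.70 (SE 0.175) for Igfbp3. For Igf1r it was −0.51 (SE 0.153), for Irs2 −0.50 (SE 0.143), for Igfbp2 −0.29 (SE 0.152) and for Insr −0.19 (SE 0.138), so that the last pair lay within 2 SE of 0.

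**Figure D3:**
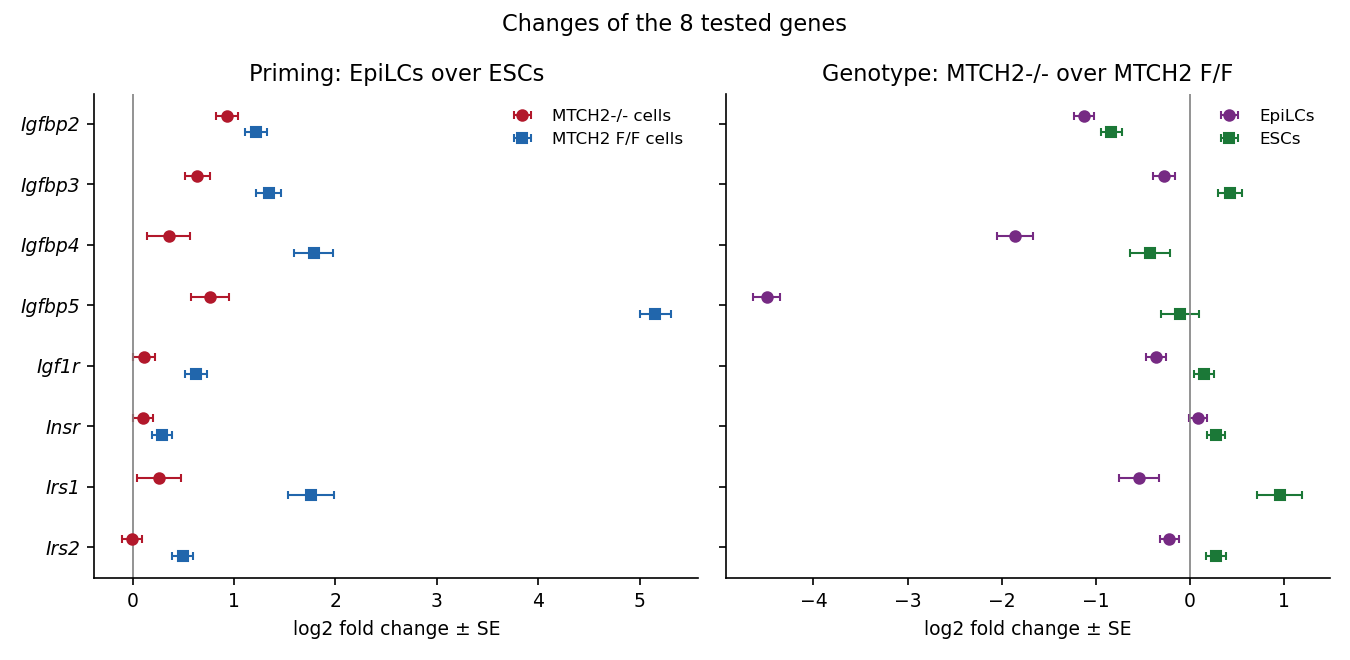
log2 fold change ± SE of the 8 tested genes, EpiLCs over ESCs in each genotype (left) and MTCH2-/- over MTCH2 F/F cells in each medium (right), with the line at 0 marking no change. Igfbp5 lies at 0.76 in MTCH2-/- and 5.16 in MTCH2 F/F cells on the left and at −4.50 in EpiLCs and −0.10 in ESCs on the right.

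Igfbp5 was compared with other genes by its profile over the 12 libraries. The measure was the root mean square difference of log2(CPM + 1) after each gene was centred on its own mean. It was not scaled, so it takes in the size of a change as well as its shape. Of 9325 named genes averaging 10 CPM or more, the nearest was Cxcl12, a chemokine, at 0.34, followed by Myb, a transcription factor of progenitor cells, at 0.63, Arrb1, a beta-arrestin, at 0.64, Camkv, a kinase-like vesicle protein, at 0.72 and Nt5dc2, a protein with a nucleotidase domain, at 0.73. Cxcl12 had 1.81 ± 0.120 CPM in MTCH2-/- EpiLCs and 38.2 ± 3.73 CPM in MTCH2 F/F EpiLCs, and 0.160 ± 0.0702 CPM in MTCH2-/- ESCs, against 0.280 ± 0.0775 in F/F ESCs (n = 3 each). Like Igfbp5 it stood above all other groups in MTCH2 F/F EpiLCs. The IGF genes were less near, with Igfbp4 at 1.27, Igfbp2 at 1.32, Igfbp3 and Irs1 at 1.6, Igf1r at 1.73, Irs2 at 1.80 and Insr at 1.90, where a gene with no change at all would lie at 1.93. Igfbp4 and Irs1 stayed below 10 CPM in every library, so they could not be among the genes ranked. These distances are descriptions, since a gene is near Igfbp5 when it shares the EpiLC difference by which Igfbp5 was picked.

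**Figure D4:**
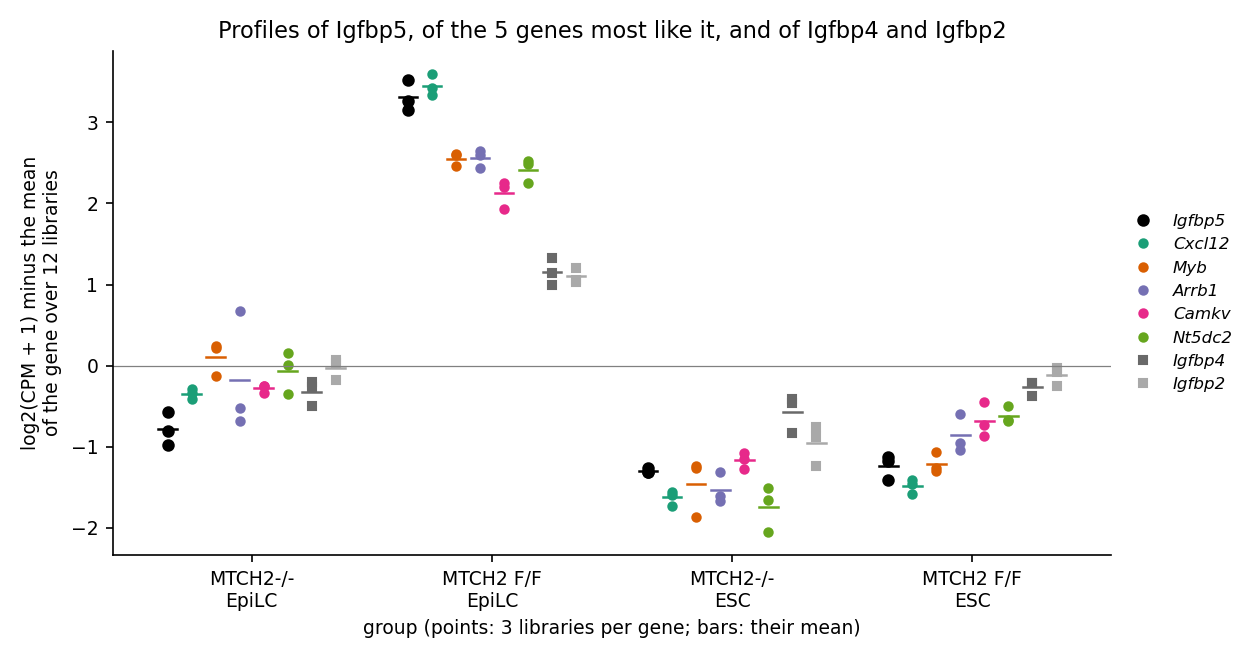
log2(CPM + 1) minus the mean of each gene over 12 libraries, for Igfbp5, the 5 genes nearest to it and Igfbp4 and Igfbp2, with EpiLCs (MTCH2-/-, then F/F) left of ESCs (MTCH2-/-, then F/F). Points are libraries and bars their mean (n = 3); all 8 genes are highest in MTCH2 F/F EpiLCs, and Igfbp4 and Igfbp2 span a smaller range than the rest.

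The genes next to the IGFBP pairs were read from the same table. Beside Igfbp2 and Igfbp5, the ribosomal protein gene Rpl37a, 110689 bases away, was lower in MTCH2-/- cells, with log2 fold changes of −0.86 in EpiLCs (SE 0.0731, edgeR adjusted p = 8.33e-08) and −0.66 in ESCs (SE 0.0726, adjusted p = 4.33e-06). On the other side, Tnp1, a protein of sperm chromatin, had 0 counts in all libraries. Beside Igfbp3, Igfbp1 had at most 1 count in a library, as did Gm11985, 9212 bases from the pair. On the other side, Tns3, a gene for a focal adhesion protein 1217728 bases away, was higher in MTCH2-/- EpiLCs by 0.80 (edgeR adjusted p = 2.71e-07). In ESCs its log2 fold change was −0.14 (adjusted p = 0.159).

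Outside the 9 genes, 63 genes of the wider pathway were listed, of which 58 passed the filter. In EpiLCs 20 of these were higher and 15 lower in MTCH2-/- cells (60.3%, against 62.5% of all genes), and in ESCs 19 were higher and 9 lower (48.3%, against 43.8%). In MTCH2-/- cells priming raised 18 and lowered 8 (44.8%, against 42.2%), and in MTCH2 F/F cells it raised 22 and lowered 20 (72.4%, against 64%). The wider pathway thus passed at close to the rate of all genes. These counts are without the replicate block. With it, 41 passed in EpiLCs and 34 in ESCs. The share of all genes with the block is not given, so nothing about the pathway is read from this rise. For the difference between the responses, 12 were higher and 13 lower (43.1%, against 35% of all genes).

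Of 5 other ligands and binding proteins tested, 3 were higher and 1 lower in MTCH2-/- EpiLCs, and 3 were higher and 0 lower in MTCH2-/- ESCs. These are 80% and 60% of only 5 genes, against 62.5% and 43.8% of all genes. The 3 higher genes were Igf2, Igfals and Igfbp7 in both media. Igf2, the main IGF of the embryo, had 16.0 ± 3.35 CPM in MTCH2-/- EpiLCs and 7.39 ± 2.23 CPM in MTCH2 F/F EpiLCs, and 11.4 ± 3.09 CPM in MTCH2-/- ESCs, against 5.99 ± 1.69 in F/F ESCs (n = 3 each). It was higher in MTCH2-/- cells by 1.12 on the log2 scale in EpiLCs (SE 0.255, edgeR adjusted p = 0.00178) and by 0.93 in ESCs (SE 0.261, adjusted p = 0.0112). Its call in ESCs was lost when F/F ESC replicate 2 was left out (adjusted p = 0.0570) and with no filter on low counts (0.0555), and an overlapping gene on the same strand, Gm49394, covers 62.8% of its exon bases. Igfals, which encodes the acid-labile subunit that joins IGF and IGFBP3 in a serum complex, was higher in MTCH2-/- cells by 1.72 in EpiLCs (edgeR adjusted p = 1.63e-06) and by 0.89 in ESCs (adjusted p = 8.01e-04). Igfbp7, a distant relative of the IGFBPs with low affinity for IGFs, was higher by 2.93 in EpiLCs (edgeR adjusted p = 1.23e-05) and 2.11 in ESCs (adjusted p = 3.78e-05), at no more than 3.63 CPM in any library. The gene that was lower in EpiLCs was Igfbpl1, which encodes an IGFBP-like protein, with a log2 fold change of −0.65 (edgeR adjusted p = 0.00267), at 3.35 ± 0.106 CPM in MTCH2-/- and 5.25 ± 0.179 CPM in F/F EpiLCs (n = 3 each). Igfbp7 and Igfbpl1 fall below the average of 10 CPM that the rule for named genes asks for and were chosen after their values were seen. None of Ins1, Ins2 and Igfbp1 passed the filter, and Ins1 had 0 counts throughout.

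Of 7 tested IGFBP proteases and their inhibitors, 4 were higher and 2 lower in MTCH2-/- EpiLCs and 2 were higher in MTCH2-/- ESCs (85.7% and 28.6%, against 62.5% and 43.8% of all genes). Htra1, a secreted protease that cleaves IGFBPs, had 66.8 ± 9.49 CPM in MTCH2-/- EpiLCs and 14.0 ± 1.42 CPM in MTCH2 F/F EpiLCs (n = 3 each), higher by 2.26 on the log2 scale (SE 0.124, edgeR adjusted p = 1.26e-09). In ESCs its log2 fold change was 0.16 (adjusted p = 0.27), with 55.8 ± 7.72 CPM in MTCH2-/- and 50.04 ± 3.39 CPM in F/F ESCs (n = 3 each). Stc2, an inhibitor of PAPP-A, was higher in MTCH2-/- ESCs by 1.24 (SE 0.118, edgeR adjusted p = 1.34e-06) and in MTCH2-/- EpiLCs by 0.27 (adjusted p = 0.0346). The Stc2 call in EpiLCs was lost when MTCH2-/- EpiLC replicate 1 (0.0863) or 2 (0.0710) or F/F EpiLC replicate 1 (0.0549) or 3 (0.171) was left out. The genes lower in EpiLCs were Adamts1, an extracellular protease, at −1.07 (edgeR adjusted p = 9.47e-06, 7.17 ± 1.05 CPM in MTCH2-/- and 15.03 ± 1.49 CPM in F/F EpiLCs), and Stc1, a relative of Stc2, at −4.07 (adjusted p = 1.55e-05, at most 0.157 CPM in MTCH2-/- and 1.85 CPM in F/F EpiLCs). These 2 were chosen after their values were seen, as both average less than 10 CPM.

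Of 11 other receptors and inhibitors at the receptor, 5 were higher and 2 lower in MTCH2-/- EpiLCs, and 5 were higher and 0 lower in MTCH2-/- ESCs. These are 63.6% and 45.5%, against 62.5% and 43.8% of all genes. Igf2r, the scavenger receptor that clears IGF2, had 326 ± 69.2 CPM in MTCH2-/- EpiLCs and 147 ± 5.44 CPM in MTCH2 F/F EpiLCs, and 395 ± 80.6 CPM in MTCH2-/- ESCs, against 216 ± 3.74 in F/F ESCs (n = 3 each). Its log2 fold changes were 1.15 in EpiLCs (edgeR adjusted p = 2.21e-05) and 0.87 in ESCs (adjusted p = 4.46e-04). Socs3, an inhibitor of cytokine receptors that also acts on insulin signalling, was higher in MTCH2-/- cells by 1.52 in EpiLCs (edgeR adjusted p = 8.95e-09) and by 0.52 in ESCs (adjusted p = 4.12e-04).

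Of 19 adaptors and PI3K-AKT genes, 4 were higher and 7 lower in MTCH2-/- EpiLCs and 4 were higher and 4 lower in MTCH2-/- ESCs. The shares were 57.9% and 42.1% (62.5% and 43.8% of all genes). With the replicate block, for which the share of all genes is not given, 13 passed in EpiLCs and 11 in ESCs. Phlda3, which competes with AKT for membrane lipids, was higher in MTCH2-/- cells by 1.19 in EpiLCs (edgeR adjusted p = 3.85e-08) and by 0.82 in ESCs (adjusted p = 5.18e-06). Among the 7 lower in EpiLCs were Pik3r2, at 49.0 ± 5.17 CPM in MTCH2-/- and 72.1 ± 5.44 CPM in F/F EpiLCs, and Phlpp1, at 32.0 ± 1.46 and 45.3 ± 2.05 CPM. Irs4, chosen after its values were seen, had 3.40 ± 1.22 CPM in MTCH2-/- and 20.1 ± 0.553 CPM in F/F EpiLCs. Of 13 genes of the TOR and FOXO branches, 4 were higher and 1 lower in MTCH2-/- EpiLCs (5 past the threshold, and 9 with library totals as the only scaling) and 5 were higher and 2 lower in MTCH2-/- ESCs. In the main fit those shares were 38.5% and 53.8%, against the same 62.5% and 43.8%. The share of all genes with library totals only is not given, so nothing is read from the 9. Foxo3, a transcription factor held out of the nucleus by AKT, was higher by 1.0 in EpiLCs (edgeR adjusted p = 2.58e-07) and 0.58 in ESCs (adjusted p = 1.36e-04), and Foxo4, of the same family, was lower, with −0.82 in EpiLCs (adjusted p = 1.95e-07) and −0.57 in ESCs (adjusted p = 2.64e-05). Ddit4, an inhibitor of TORC1, was higher by 1.83 in MTCH2-/- ESCs (edgeR adjusted p = 1.37e-08), with a log2 fold change of 0.10 in EpiLCs (adjusted p = 0.402). The 3 genes for IGF2 mRNA binding proteins were all lower in MTCH2-/- ESCs, with Igf2bp1 at −0.59 (edgeR adjusted p = 3.11e-06), Igf2bp3 at −0.44 (adjusted p = 1.68e-04) and Igf2bp2 at −0.39 (adjusted p = 0.0438). In MTCH2-/- EpiLCs 2 of the 3 were lower, and Igf2bp2, at −0.33 (adjusted p = 0.0685), passed with the replicate block (0.0185) and with DESeq2 (0.0319). Shares over 3 genes are not set against all genes. The Igf2bp2 call in ESCs was lost with library totals as the only scaling (adjusted p = 0.0601), with no filter on low counts (0.142), and when MTCH2-/- ESC replicate 1 (0.164) or 3 (0.115) or F/F ESC replicate 2 (0.0830) or 3 (0.109) was left out.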

How the data were processed

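Poly-A RNA of 12 libraries was read from single ends. Per the study's methods and the labels, the authors used TopHat 2.0.10 for mapping to GRCm38 and HTSeq 0.6.1p1 for counting. The deposited values used are raw counts, 1 whole number per gene and library, not normalized by the authors. A further 12 columns of normalized values, and the authors' table of fold changes and adjusted p values, were not used. No source used here says whether counting used strand or how reads in bases shared between genes were counted. Counts of overlapping genes may hold reads of both or lack the shared reads. Library totals of 17453328 to 24068523 counts set the precision.

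The counts were fitted with edgeR 4.0.16 (R 4.3.3), with its filter on low counts, TMM scaling, the 4 groups fitted together without a replicate term, edgeR's robust quasi-likelihood test, and p-values adjusted by Benjamini-Hochberg over the 17369 genes tested. A call is an adjusted p under 0.05. The standard error (SE) is the size of the log2 fold change over the square root of F. Alternatives were RLE scaling, library totals, no filter, a filter of 1 CPM in 3 libraries, DESeq2 1.42.0, the replicate number as a block, only the groups compared, and each library left out. Positions and exon lengths are from GENCODE vM21. RefSeq (GRCm38.p6) gave a promoter for 8 of the 9 genes, all but Insr.

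The members and the gene lists were chosen with earlier results of these data known. Named genes are the members, up to 3 genes of each pathway list per direction and contrast with the largest change among those past the threshold with a mean of at least 10 CPM (a selection of them is printed, and some results are not reported here), the 5 genes nearest in profile to Igfbp5 (pseudocount 1, or 0.5 as an alternative) and the neighbours of the IGFBP genes. The samples are paired by the replicate numbers in their labels, which the main fit does not use. With group means taken off, all 12 same-numbered pairs of libraries correlated across genes by 0.107 to 0.471, and the 24 pairs of different number by −0.317 to 0.0067.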

Additional observations from a re-analysis of the deposited data

Results flagged for a closer look

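For 3 members every MTCH2-/- library lay on opposite sides of the MTCH2 F/F libraries in the 2 media, below them in EpiLCs and above them in ESCs. Over all genes tested, 32.6% lay lower in EpiLCs and 28% higher in ESCs without overlap. The share of all genes with both is not given, so nothing is read from the count of 3. The log2 fold change in EpiLCs minus that in ESCs was −0.70 for Igfbp3, −1.50 for Irs1 and −0.50 for Irs2, and this difference was not tested because the EpiLC comparison chose the genes.

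For 25 of the 58 tested genes of the wider pathway the response to priming differed between the genotypes by edgeR's test of the difference (MTCH2-/- minus MTCH2 F/F, log2 scale, adjusted p under 0.05). The 13 given are from those with the largest difference in each list and direction. Among genes at the extracellular step, the difference was 0.83 for Igfals, 2.10 for Htra1, 0.32 for Adam9 and −0.97 for Stc2. The Igfals difference was lost when F/F EpiLC replicate 1 or 2 was left out (adjusted p = 0.0552 and 0.0553). For Socs3, an inhibitor at the receptor, it was 1.0. Among adaptors and PI3K-AKT genes, it was 0.67 for Pdpk1, 0.44 for Grb2, 0.40 for Akt2 and −0.37 for Pik3r2. The Pik3r2 difference (adjusted p = 0.0499) was lost with RLE scaling (0.0530), library totals only (0.0564) and DESeq2 (0.0528), and in 9 of the 12 fits that leave out a library, while that of Akt2 was lost in 6 of these 12. In the TOR and FOXO branches, it was 0.42 for Foxo3, −1.73 for Ddit4, −0.36 for Rheb and −0.35 for Foxo1. Of the 12 fits, 5 lost the Adam9 difference and 2 that of Foxo1. Of all genes tested, 35% passed this test.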

How the results depend on the processing

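The 14 member results past the threshold were recomputed to 266 values under the alternatives, of which 21 lost the call and 0 changed sign. The 8 tested results not past it gave 152 values, of which 0 passed and 13 changed sign, and of 334 values described without a test 1 changed sign, that of Insr between the EpiLCs. The losses were the ESC calls of Igfbp3, Insr and Irs2 and the Insr priming call in MTCH2 F/F cells, each named in the report. The count of members past the threshold in ESCs was 5, was 4 with RLE scaling or DESeq2, and ranged from 2 to 5 when each library was left out in turn. With the replicate block it was 5, and the block changed no other member call. It added calls in the wider pathway, where the proteases past the threshold in priming of MTCH2-/- cells were 3, and 5 with the replicate block. The share of all genes with the block is not given beside these calls. Which property of the libraries decides these calls was not tested. Of 72 group levels under other scalings, 2 moved by more than their SD, with library totals only, Igf1r at 22.4 CPM and Insr at 40.0 CPM in MTCH2 F/F ESCs. A pseudocount of 0.5 gave the same 5 genes nearest to Igfbp5. Depth limits Igf1, at 5 counts or fewer a library, and in ESCs Igfbp4 (22 to 48 counts), Igfbp5 (30 to 42) and, in the F/F cells, Irs1 (28 to 36).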
